A study of Homo sapiens with 9 samples.

Results

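The 9 genes followed here belong to the provisional and matricellular extracellular matrix: FN1, THBS1, CCN1, CCN2, CCN5, SPARC, TNC, TGFBI and FBLN1. Their RNA was compared between human keratinocytes in which the lipid enzyme SGPL1 was unchanged, knocked out or overexpressed. They were chosen by name, with their fold changes between these libraries already in view, and they are 9 of the 60671 genes in the count files and 9 of the 13390 that were tested. The values that follow are therefore a description of genes selected on these values, and no test on them stands as support for the selection. The cells were N/TERT, human skin keratinocytes made immortal by telomerase, here with no treatment. Poly-A RNA was sequenced from 3 control libraries of wild-type cells, 3 libraries of cells in which SGPL1 was knocked out by CRISPR (KO) and 3 libraries of cells that overexpress SGPL1 (OE), all on the N/TERT background. SGPL1 encodes sphingosine-1-phosphate lyase, which irreversibly cleaves the signalling lipid sphingosine-1-phosphate. The series' text calls the 3 libraries of a group biological replicates and speaks of KO and OE cell lines, but the number of clones is not given, so the p-values measure the spread between libraries, which may be smaller than the spread between clones.

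Fibronectin is secreted as a dimer and pulled by integrins into fibrils, which form the provisional matrix that keratinocytes meet and migrate on in a healing wound. Matricellular proteins such as thrombospondin 1, the CCN proteins, SPARC and tenascin C sit in the same matrix but mainly modulate adhesion, growth factor activity and matrix assembly rather than bear load. Several of these genes, above all CCN1, CCN2 and THBS1, are known targets of the co-activators YAP and TAZ, which work through TEAD transcription factors, and many also respond to TGF-beta.

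SGPL1 followed the labels. Its level in CPM (reads scaled to the size of the library, after TMM normalization) was 83.9, 95.1 and 98.3 in control, 58.8, 58.3 and 61.6 in KO and 1132, 1104 and 929 in OE libraries. The KO libraries kept reads from the gene, whose count covers all exons, and lay 1.55-fold below the controls (log2 fold change -0.64 ± 0.09 SE, edgeR adjusted p = 5.14e-06), while the OE libraries lay 11.4-fold above them (3.51 ± 0.09, adjusted p = 4.90e-18). Depth ran from 6317564 to 13330479 assigned reads per library. Fold changes of KO against control followed exon length across all tested genes: the median log2 fold change was 0.52 in the shortest decile of genes (median exon length 1178 bases) and -0.45 in the longest decile (13563 bases), against -0.03 and -0.06 for OE. The fold changes of the 9 genes in KO cells are therefore also given as the value from a fit with the trend over exon length and GC content removed, called the corrected value. For SGPL1 it was -0.46. Keratinocyte markers (10 genes) summed to 31982 to 32423 CPM in control, 18399 to 20158 CPM in KO and 32963 to 35380 CPM in OE libraries, and 7 of the 10 were called lower in KO cells (KRT5, KRT14 and KRT6A among them), where 25.9% of all tested genes were. TP63 (0.29, corrected 0.32) and PERP (0.25, corrected -0.01) were called higher, where 26% of all tested genes were, and KRT15 did not pass (0.19). With the trend removed PERP and ITGB4 (-0.51, corrected 0.01) did not pass and KRT15 did (0.48). The corrected counts were 2 higher and 6 lower of the 10, against 24.8% and 20.7% of all tested genes. The part of these markers in the results below was not tested. Fibroblasts are known to make much of this matrix. The 12 fibroblast markers summed to 81.4 to 91.8, 78.0 to 91.8 and 92.5 to 97.0 CPM in control, KO and OE libraries, almost all of it FAP and COL1A1, with COL3A1 and LUM at 0 in all 9 libraries. Melanocyte markers summed to 60.0 to 101 CPM, nearly all MITF, with TYR, DCT and SOX10 at 0 in all libraries, and endothelial and blood markers to at most 2.03 CPM. In bulk RNA, fewer cells that express a gene and less RNA per cell cannot be told apart.

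The promoters of 4 of the genes are shown because YAP and TAZ reach their targets through TEAD factors, and these genes span the responses described below: FN1 and THBS1 went in opposite directions in KO and OE cells, SPARC was higher in KO cells, and CCN2 is the best known YAP target of the set. Each sequence runs 5′ to 3′ along the gene from 250 bases before to 50 bases after the start of the RefSeq transcript (GRCh38.p14), and capitals mark the TEAD core GGAATG or its reverse complement.
CCN2, chr6:131951323-131951622, minus strand: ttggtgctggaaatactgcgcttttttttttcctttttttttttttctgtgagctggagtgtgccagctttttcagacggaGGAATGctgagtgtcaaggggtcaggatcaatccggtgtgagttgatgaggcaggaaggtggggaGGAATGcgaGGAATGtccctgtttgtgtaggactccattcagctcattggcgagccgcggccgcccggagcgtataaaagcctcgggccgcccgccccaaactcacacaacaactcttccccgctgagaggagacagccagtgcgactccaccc
THBS1, chr15:39580829-39581128, plus strand: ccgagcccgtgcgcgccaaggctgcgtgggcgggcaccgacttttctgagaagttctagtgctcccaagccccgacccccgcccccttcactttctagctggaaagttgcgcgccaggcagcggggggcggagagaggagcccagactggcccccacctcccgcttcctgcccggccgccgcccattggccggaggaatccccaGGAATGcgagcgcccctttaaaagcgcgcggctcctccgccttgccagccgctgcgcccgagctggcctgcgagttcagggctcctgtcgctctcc
SPARC, chr5:151686866-151687165, minus strand: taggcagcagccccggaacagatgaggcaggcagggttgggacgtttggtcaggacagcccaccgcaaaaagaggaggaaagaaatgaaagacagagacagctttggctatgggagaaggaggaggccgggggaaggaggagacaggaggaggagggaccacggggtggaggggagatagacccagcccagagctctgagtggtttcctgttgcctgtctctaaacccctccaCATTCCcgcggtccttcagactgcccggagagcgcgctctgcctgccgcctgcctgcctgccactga
FN1, chr2:215436019-215436318, minus strand: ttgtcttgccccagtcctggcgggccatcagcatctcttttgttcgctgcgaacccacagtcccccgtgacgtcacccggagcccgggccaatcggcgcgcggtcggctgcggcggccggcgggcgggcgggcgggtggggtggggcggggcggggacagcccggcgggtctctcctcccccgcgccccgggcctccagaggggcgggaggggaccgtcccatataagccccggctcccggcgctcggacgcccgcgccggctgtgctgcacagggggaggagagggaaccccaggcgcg
The CCN2 promoter held 3 TEAD cores, beginning 169, 104 and 95 bases before the start. THBS1 had 1 core 46 bases before the start, and SPARC had 1 on the reverse strand 17 bases before it. FN1, TNC, TGFBI and FBLN1 had none in this window, and CCN1 and CCN5 have no entry in the table. Of 35116 RefSeq promoters of the same length, 14% held at least 1 TEAD core on either strand and 0.128% held 3 or more. None of the 7 promoters held the AP-1 site TGANTCA (in 7.71% of all promoters) or a CArG box, the element bound by SRF (1.29%), and 1 of the 7, TNC, held the SMAD element CAGACA (16.9%). The GC box GGGCGG was found in 45% of all promoters, and 15.8% held 3 or more. It occurred 6 times in FN1, overlapping matches counted, 4 times each in THBS1 and TGFBI and 3 times in CCN2. TNC and FBLN1 held 1 each and SPARC 0. A match describes letters in the window only.

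FN1 and THBS1, the fibril-forming adhesion protein and the trimeric glycoprotein that binds CD47, CD36 and integrins and can activate latent TGF-beta, were called in opposite directions in KO and OE cells. FN1 (ENSG00000115414, chr2:215360440-215436073, minus strand, 17216 exon bases) stood at 2601, 2566 and 2712 CPM in control, 708, 842 and 913 CPM in KO and 4270, 4381 and 3466 CPM in OE libraries. The KO libraries were lowest and the OE libraries highest, and no 2 groups overlapped. FN1 was 3.20-fold lower in KO cells (log2 fold change -1.68 ± 0.10, 95% interval -1.88 to -1.48, corrected -1.25 ± 0.08) and 1.54-fold higher in OE cells (0.62 ± 0.09, 0.43 to 0.81). Its exons are among the longest decile of tested genes, whose median KO fold change was -0.45. OE replicate 3, the deepest library, was the lowest of its group for FN1, and without it the OE fold change was 0.73 on the log2 scale.

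THBS1 (ENSG00000137801, chr15:39581079-39599466, plus strand) stood at 357, 401 and 391 CPM in control, 99.5, 113 and 132 CPM in KO and 950, 1193 and 1024 CPM in OE libraries. The 3 groups again did not overlap, in the same order as for FN1. THBS1 was 3.35-fold lower in KO cells (-1.74 ± 0.10, corrected -1.52 ± 0.09) and 2.76-fold higher in OE cells (1.46 ± 0.10), so that KO and OE cells differed 9.22-fold, the widest gap between these 2 groups among the 9 genes. Exon bases shared with FSIP1 and THBS1-AS1 made up 7.58% of its length, and reads there cannot be assigned by strand. FN1 took 0.268% of assigned reads in control, 0.0774% in KO and 0.417% in OE libraries on average.

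**Figure D1:**
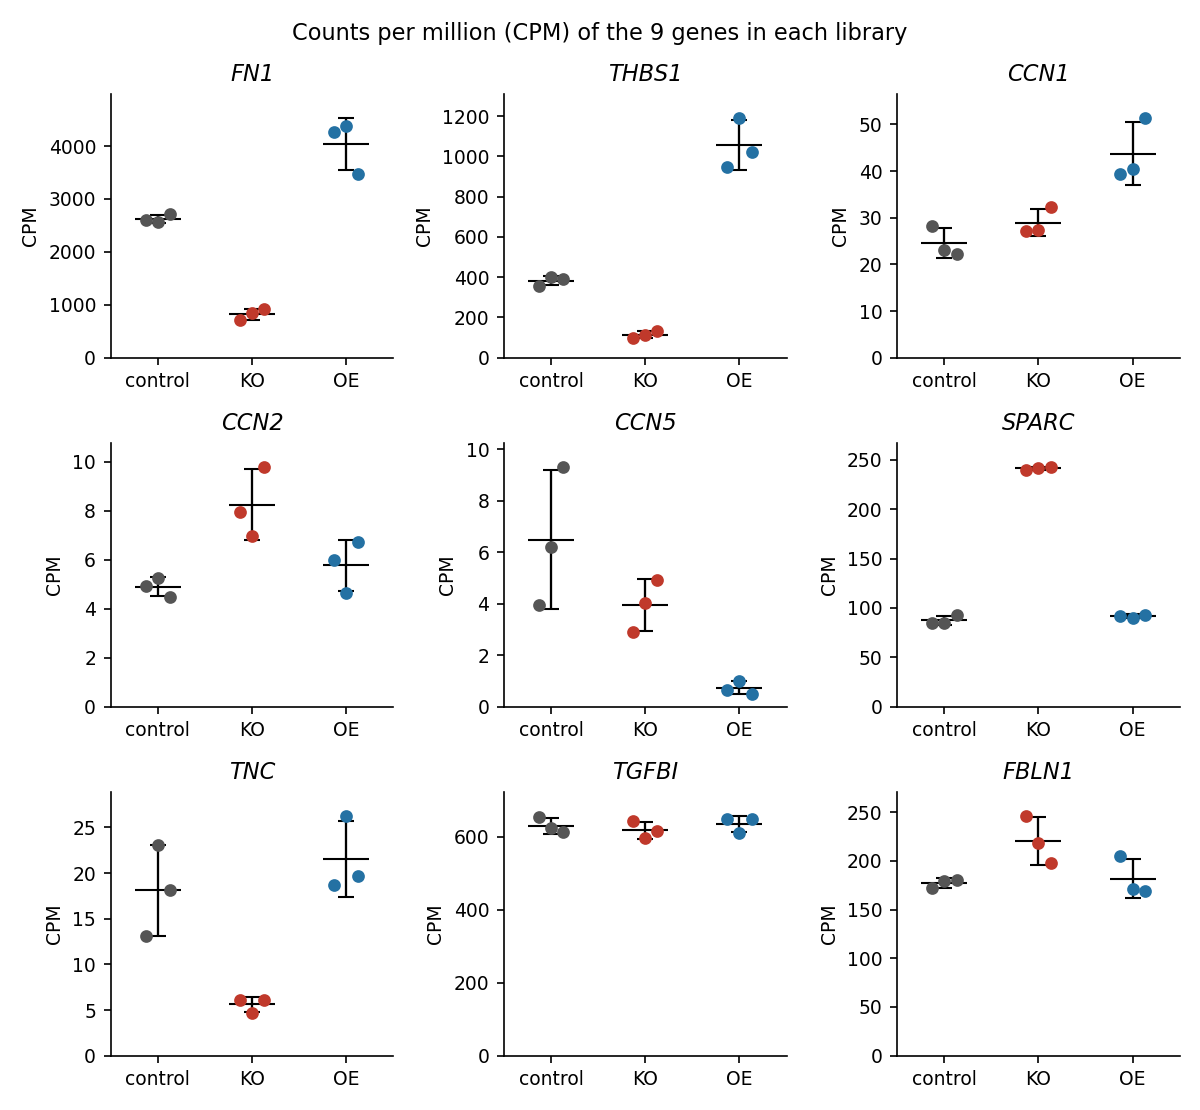
Level of each of the 9 genes in CPM (linear axes from 0) in the control, KO and OE libraries; points are libraries, horizontal bars the mean and error bars the SD (n = 3). FN1 and THBS1 fall in KO and rise in OE libraries, SPARC is at 239 to 243 CPM in KO and 84.6 to 93.0 CPM in the other libraries, CCN5 is near 0 in OE, and TGFBI stays between 597 and 654 CPM throughout.

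The CCN proteins, short cysteine-rich secreted regulators, did not move together. CCN1 (ENSG00000142871, chr1:85580761-85584589, plus strand), which binds integrins and supports adhesion and wound healing, stood at 28.3, 23.2 and 22.2 CPM in control, 27.1, 27.5 and 32.3 CPM in KO and 39.4, 40.4 and 51.5 CPM in OE libraries. Control and KO libraries overlapped, and all OE libraries lay above both. The OE difference was 1.79-fold (0.84 ± 0.13), and the KO difference did not pass (0.23 ± 0.14, 95% interval -0.06 to 0.52, corrected 0.15 ± 0.13).

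CCN2 (ENSG00000118523, chr6:131948176-131951372, minus strand), or connective tissue growth factor, was low in these cells, with 40 to 92 reads per library. It stood at 4.91, 5.27 and 4.49 CPM in control, 7.95, 6.95 and 9.81 CPM in KO and 5.98, 4.64 and 6.71 CPM in OE libraries. The KO libraries lay above all others, while OE and control libraries overlapped. The KO difference was 1.67-fold (0.74 ± 0.25, adjusted p = 0.016) but no longer passed in the corrected fit (0.48 ± 0.25, adjusted p = 0.114), without control replicate 3 (adjusted p = 0.0566) or without KO replicate 3 (adjusted p = 0.0693), all by edgeR. In OE cells the difference was 0.25 ± 0.25 on the log2 scale, with an interval from -0.27 to 0.76. Of its exon bases, 8.34% overlap another annotated gene.

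CCN5 (ENSG00000064205, chr20:44714844-44728509, plus strand) lacks the carboxy-terminal domain of the other CCN proteins and is known as a growth arrest gene of smooth muscle. It stood at 3.93, 6.22 and 9.33 CPM in control, 2.89, 4.04 and 4.90 CPM in KO and 0.664, 1.01 and 0.511 CPM in OE libraries, from 6, 10 and 7 reads in the last group. The OE libraries lay below all others, and the KO and control libraries overlapped. CCN5 was 8.96-fold lower in OE cells (-3.16 ± 0.42, 95% interval -4.04 to -2.29), the widest interval of the 9 genes. In KO cells the difference was -0.73 ± 0.35 (corrected -0.59 ± 0.35) and did not pass (adjusted p = 0.0851), except without control replicate 1, the lowest control library (-0.99, adjusted p = 0.0281, edgeR).

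SPARC and TNC, both known as counter-adhesive proteins, went opposite ways in KO cells, and neither passed the threshold in OE cells. SPARC (ENSG00000113140, chr5:151661096-151686975, minus strand), or osteonectin, a collagen-binding glycoprotein, stood at 84.6, 85.0 and 93.0 CPM in control, 239, 242 and 243 CPM in KO and 92.3, 89.5 and 92.9 CPM in OE libraries. The KO libraries lay far above both other groups, which overlapped. SPARC was 2.76-fold higher in KO cells (1.46 ± 0.08, corrected 1.38 ± 0.07), and its OE difference had an interval from -0.10 to 0.23 on the log2 scale. Fold changes of its exon length (4641 bases) centred near 0 in the KO comparison, with a median of 0.01 in that length decile.

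TNC (ENSG00000041982, chr9:115019575-115118257, minus strand), a hexameric glycoprotein of wound edges and tumour stroma that binds fibronectin, stood at 13.1, 23.1 and 18.2 CPM in control, 6.15, 4.71 and 6.09 CPM in KO and 18.7, 26.3 and 19.7 CPM in OE libraries. The KO libraries lay below all others, and control and OE libraries overlapped. TNC was 3.23-fold lower in KO cells (-1.69 ± 0.22, corrected -1.20 ± 0.21), and the OE difference was 0.25 ± 0.19, with an interval from -0.14 to 0.64.

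TGFBI (ENSG00000120708, chr5:136028988-136063818, plus strand), a TGF-beta-induced adhesion protein that links integrins and collagens, was the steadiest member by CPM. It stood at 654, 625 and 612 CPM in control, 643, 597 and 615 CPM in KO and 650, 611 and 648 CPM in OE libraries. All groups overlapped, and the 95% intervals of the log2 fold change ran from -0.18 to 0.12 in KO and from -0.14 to 0.17 in OE cells. With the length and GC trend removed, the KO difference changed sign and passed (0.27 ± 0.07, edgeR adjusted p = 0.00291), so that its direction in KO cells depends on that setting.

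FBLN1 (ENSG00000077942, chr22:45502238-45601135, plus strand), or fibulin 1, which binds fibronectin, laminin and elastic fibres, stood at 172, 180 and 180 CPM in control, 247, 218 and 198 CPM in KO and 205, 172 and 169 CPM in OE libraries. The KO libraries lay above the controls but overlapped with OE replicate 1. The KO difference was 1.25-fold (0.32 ± 0.09, adjusted p = 0.00494), did not pass without KO replicate 1 (0.23, adjusted p = 0.0540, edgeR) and was 1.65-fold in the corrected fit (0.72 ± 0.08). The OE difference was 0.04 ± 0.09, with an interval from -0.15 to 0.22.

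By call, the KO comparison had 3 members higher (CCN2, SPARC and FBLN1), 3 lower (FN1, THBS1 and TNC) and 3 not passed at an adjusted p of 0.05, where 26% of all tested genes were called higher and 25.9% lower. With the length and GC trend removed, the counts were 3 higher (SPARC, TGFBI and FBLN1) and 3 lower (FN1, THBS1 and TNC), against 24.8% and 20.7% of all genes. The OE comparison had 3 members higher (FN1, THBS1 and CCN1), 1 lower (CCN5) and 5 not passed, against 9.28% and 9.34% of all genes. In KO against OE, 3 were higher in KO (CCN5, SPARC and FBLN1) and 4 lower (FN1, THBS1, CCN1 and TNC), against 28.6% and 29%, and with the trend removed the counts were 4 and 4, against 28% and 25.1%. FBLN1 was not called in that comparison without KO replicate 1 (edgeR adjusted p = 0.0934) or without OE replicate 2 (adjusted p = 0.0571). The median log2 fold change of the 9 genes was -0.03 in KO and 0.25 in OE cells, beside -0.005 and -0.007 for all tested genes, and 0.15 in KO beside 0.02 with the trend removed. Because the members were chosen on these contrasts, nothing is read from the counts. The KO and OE comparisons share their 3 control libraries, so values set side by side are not independent.

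**Figure D2:**
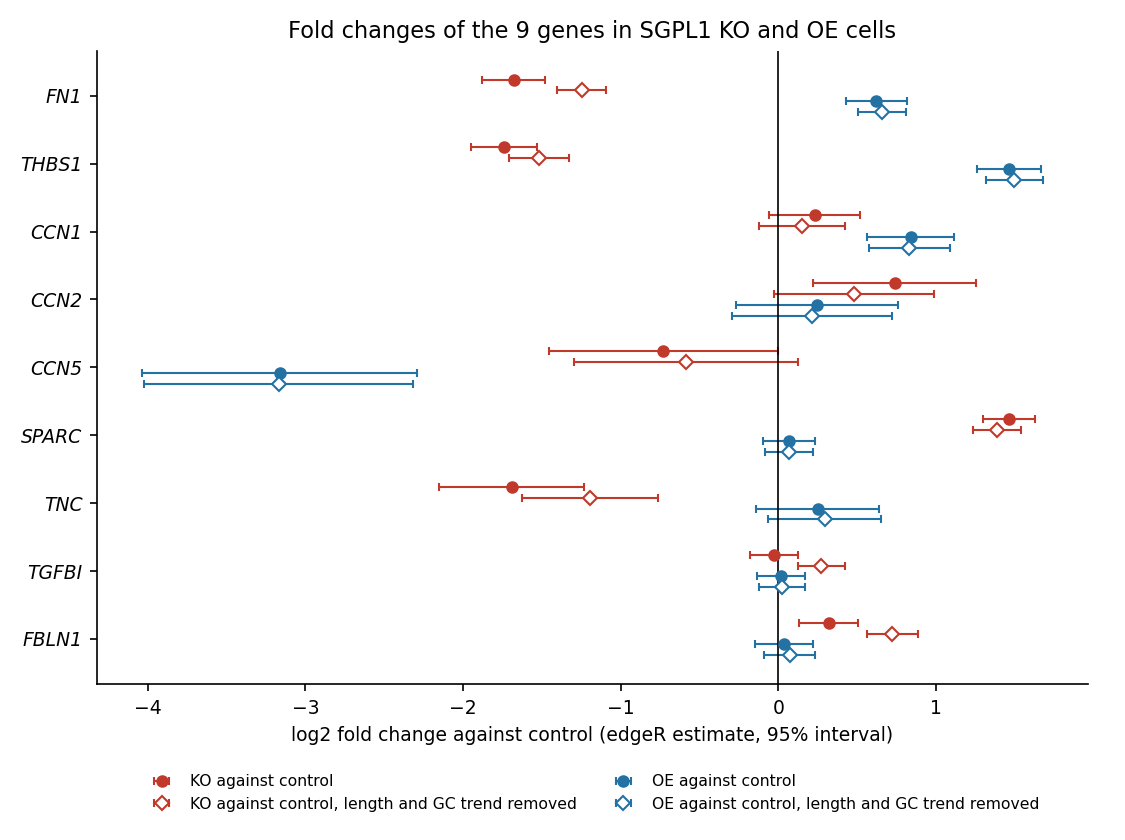
Log2 fold change of the 9 genes against control in KO (red) and OE (blue) cells, with 95% intervals; filled circles are the edgeR estimates and open diamonds those with the length and GC trend removed. THBS1 spans -1.74 in KO to 1.46 in OE cells, SPARC lies at 1.46 in KO and 0.07 in OE cells, CCN5 reaches -3.16 in OE, and TGFBI lies at -0.03 in KO cells or at 0.27 after the trend is removed.

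Levels can be compared between genes only per exon length, as TPM, each gene's share of the length-scaled reads. The length is that of all annotated exons of a gene, which can exceed the transcript expressed, so the order depends on the annotation. In control cells the order was FN1 (619 ± 22.7 TPM, SD, n = 3), TGFBI (331 ± 6.57), THBS1 (170 ± 12.7), FBLN1 (98.8 ± 4.09), SPARC (76.5 ± 4.90), CCN1 (26.9 ± 3.12), CCN2 (8.49 ± 0.68), TNC (7.65 ± 2.19) and CCN5 (5.30 ± 2.27). The libraries of neighbours did not overlap down to CCN1 and CCN2, while CCN2 overlapped with TNC and TNC with CCN5. In KO cells TGFBI led (265 ± 11.5 TPM), followed by SPARC (172 ± 3.22) and FN1 (158 ± 18.0), whose libraries overlapped, and TNC was last (1.94 ± 0.26), overlapping with CCN5 (2.61 ± 0.63). In OE cells FN1 (986 ± 157 TPM) was followed by THBS1 (483 ± 66.5), which stood above TGFBI (345 ± 12.3), and CCN5 was last (0.616 ± 0.23). The TPM of TGFBI were lower in KO than in control libraries although its CPM overlapped. A gene's length is the same in all groups, and TPM carry no TMM scaling and move with the trend over length.

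**Figure D3:**
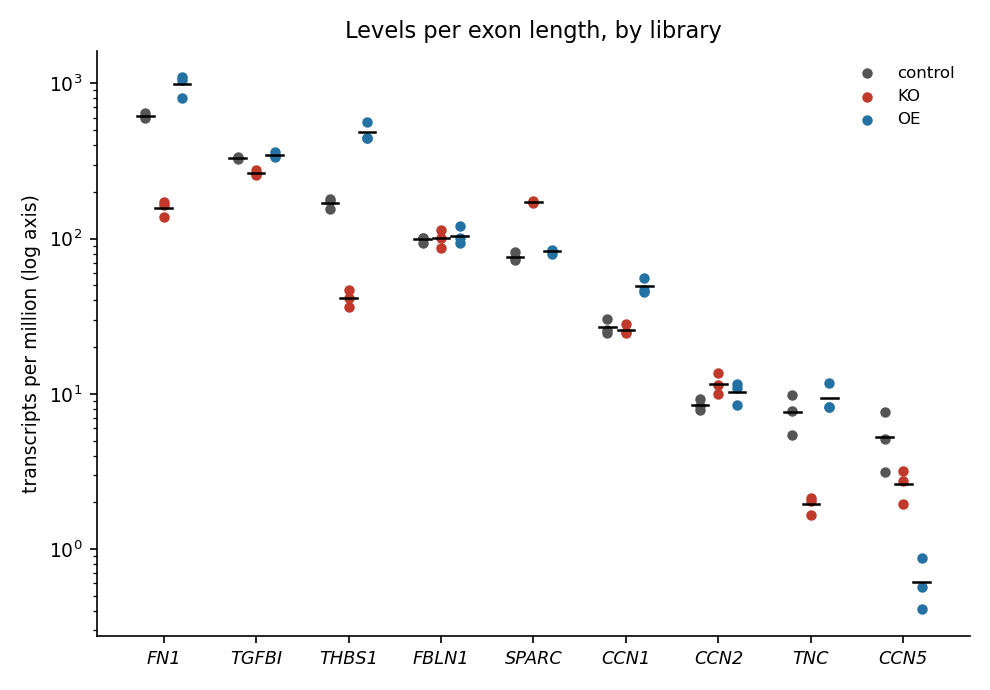
TPM of the 9 genes (log axis), ordered by the control mean; points are libraries and black bars group means. FN1 leads in control (619) and OE cells (986) and drops to 158 in KO cells, below TGFBI at 265, while CCN5 ranges from 5.30 in control to 0.616 in OE cells.

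**Figure D4:**
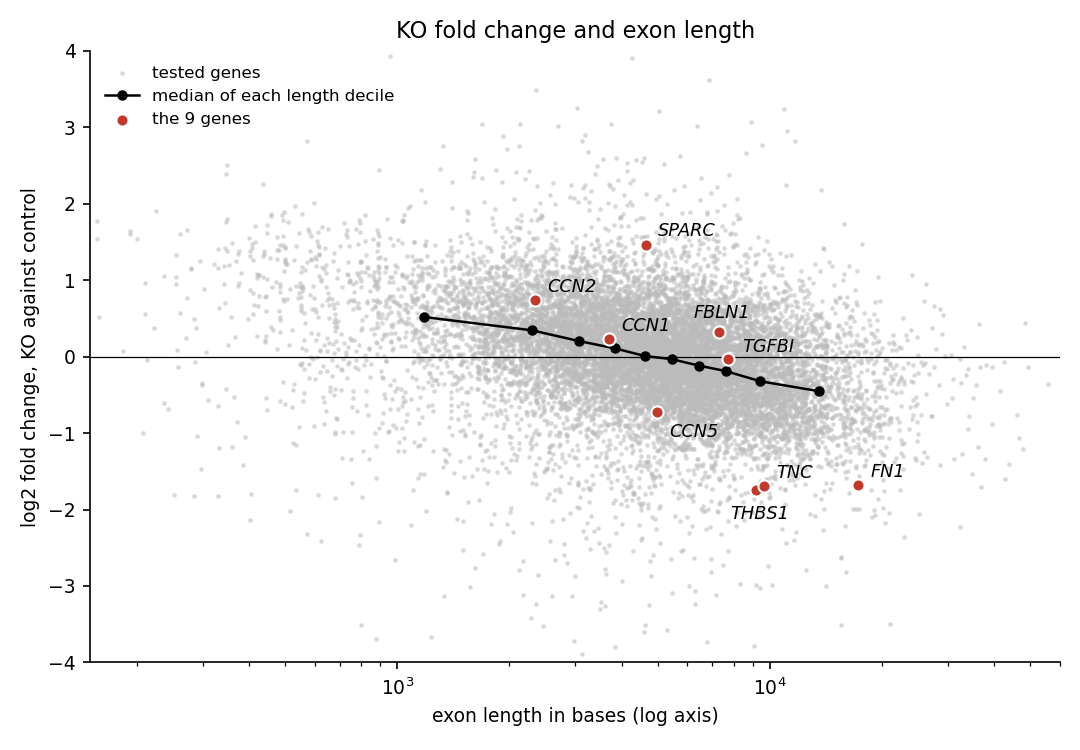
Log2 fold change of KO against control over exon length (log axis) for 13347 tested genes (grey; 43 lie outside the axes), with the median of each length decile (black) and the 9 members (red). The medians fall from 0.52 to -0.45; FN1, THBS1 and TNC lie more than 1 log2 unit below the median of their decile, and SPARC more than 1 above.

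Beside the trend over length, the members sat at different distances from genes of like length. FN1 was at -1.68 against a median of -0.45 in its length decile, and THBS1 and TNC were at -1.74 and -1.69 against -0.32. CCN2 was at 0.74 against 0.34, CCN1 at 0.23 against 0.11, and TGFBI at -0.03 and FBLN1 at 0.32 against -0.19.

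Lists of related genes put the members in context: they hold 163 distinct genes, of which 128 were tested. In KO cells 24 rose and 58 fell, with a median log2 fold change of -0.27 (corrected 32 and 46, median -0.10), and in OE cells 28 rose and 16 fell (10 fell without control replicate 1), with a median of 0.03. Over all tested genes, the KO comparison called 3485 higher (26%) and 3466 lower (25.9%), or 24.8% and 20.7% with the trend removed. The OE comparison called 1242 higher (9.28%) and 1251 lower (9.34%). Other matricellular and provisional matrix genes had the lowest share tested, 16 of 38. CCN3, POSTN, VTN and FBLN7 were among the genes of this list with no reads in any library. Of the 16, 2 rose and 5 fell in KO cells (median -0.09, corrected 3 and 3, median 0.10), and 4 rose and 4 fell in OE cells (median 0.07). FBN2, a fibrillin of elastic microfibrils, was 328.6 CPM in control, 77.7 in KO and 445 in OE cells on average, with log2 fold changes of -2.08 ± 0.11 (edgeR adjusted p = 1.12e-12, corrected -1.61) and 0.44 ± 0.10 (adjusted p = 0.00305). ECM1, a glycoprotein of the skin's basement membrane zone, fell in KO (-0.82 ± 0.17, corrected -0.83) and SRPX2 rose (0.62 ± 0.09, corrected 0.78). FSTL1, a secreted relative of SPARC, rose in OE cells (0.42 ± 0.10), and TNXB, whose count is uncertain because of its near-identical copy TNXA, fell there (-1.28 ± 0.19).

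Of the receptors of these proteins, 14 of 19 were tested. In KO cells 4 rose and 4 fell (median 0.09), where 26% of all tested genes were called higher and 25.9% lower. The corrected counts were 6 and 2 (median 0.14), beside 24.8% and 20.7% of all tested genes. In OE cells 3 rose and 4 fell (median -0.05), beside 9.28% and 9.34%. ITGA5, whose integrin with ITGB1 is the main receptor for fibronectin fibril assembly, was 107 to 112 CPM in control, 87.7 to 98.9 CPM in KO and 176 to 193 CPM in OE libraries. It rose in OE cells (0.73 ± 0.08, edgeR adjusted p = 7.48e-07), and its small KO fall (-0.26 ± 0.08, adjusted p = 0.0131) became 0.11 in the corrected fit (adjusted p = 0.294) and did not pass without KO replicate 1 (adjusted p = 0.0558). ITGB1 differed by 0.09 ± 0.07 in KO (corrected -0.04) and 0.18 ± 0.07 in OE cells, neither past the threshold by edgeR. The OE difference of ITGB1 passed by DESeq2 (adjusted p = 0.0259) and limma-voom (adjusted p = 0.0428), and by edgeR in the corrected fit (adjusted p = 0.0338) and without OE replicate 3 (adjusted p = 0.0308). CD47, the thrombospondin receptor that restrains phagocytosis, rose in KO cells (0.96 ± 0.12, edgeR adjusted p = 5.19e-07, corrected 0.96) and stood at -0.03 ± 0.12 in OE cells. CD36, another thrombospondin receptor, was named after its values were seen: it stood at 0.218 to 0.449 CPM in control, 3.13 to 4.06 CPM in KO and at most 0.221 CPM in OE libraries. LRP1, the endocytic receptor that clears thrombospondin, fell in KO (-2.05 ± 0.13, corrected -1.04) and in OE cells (-0.50 ± 0.12), and SDC4, a heparan sulfate co-receptor for fibronectin, rose in KO (0.43 ± 0.08, corrected 0.17 and not passed). ITGB5 (0.64 ± 0.09) and PLAUR (1.02 ± 0.21) rose in OE cells.

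Fibronectin assembly and focal adhesion genes, 21 of 23 tested, had 0 rises and 11 falls in KO cells (median -0.50). Once the length and GC trend was removed, they had 4 rises and 8 falls (median -0.05). Of all tested genes, 26% were called higher and 25.9% lower, or 24.8% and 20.7% with the trend removed. At an unadjusted p under 0.05, 0 of the 21 were higher by edgeR, 0 by DESeq2 and 1 by limma-voom. The counts of adjusted rises were 0 with DESeq2 and 0 with limma-voom. The filamin FLNA (-1.37 ± 0.08, corrected -0.63) and talin TLN1 (-1.20 ± 0.09, corrected -0.61), which tie integrins to actin, were among the falls with the smallest p-values. In OE cells 6 rose and 2 fell (median 0.03), beside 9.28% and 9.34% of all tested genes. ACTN1 (0.39 ± 0.08) rose and LIMS1 (-0.40 ± 0.09) fell there.

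YAP and TEAD targets other than the members, 22 of 24 tested, had 4 rises and 12 falls in KO cells (median -0.43). The corrected fit had the same counts (median -0.38), but not all of the same genes. Among the falls, AMOTL2 lost its call (-0.38, corrected -0.08) and F3 gained one (-0.07, corrected -0.47). Of all tested genes, 26% were called higher and 25.9% lower in KO, or 24.8% and 20.7% in the corrected fit. In OE cells 8 rose and 1 fell (median 0.17), beside 9.28% and 9.34% of all tested genes. MYOF fell in KO cells (-1.11 ± 0.09, corrected -0.90), as did ARHGEF17 (-1.09 ± 0.13, corrected -0.36), while BIRC5, the survivin gene of dividing cells, rose (1.16 ± 0.12, corrected 1.14). F3, the tissue factor gene, rose in OE cells (1.07 ± 0.11), and so did AMOTL2 (0.52 ± 0.08), while CCDC80 fell (-0.84 ± 0.12). ANKRD1, a target often used as a YAP readout, was near the floor at a mean of 0.218, 0.244 and 0.312 CPM in control, KO and OE cells and was not tested.

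Among Hippo core genes, 21 of 22 tested, 3 rose and 13 fell in KO cells (median -0.42), beside 26% and 25.9% of all tested genes. The corrected counts were 2 and 11 (median -0.28), beside 24.8% and 20.7%. In OE cells 2 rose and 2 fell (median 0.03), beside 9.28% and 9.34%. The mRNA of YAP1 differed by -0.11 ± 0.08 in KO (corrected -0.13) and -0.11 ± 0.08 in OE cells, and that of WWTR1, which encodes TAZ, by 0.01 ± 0.13 (corrected 0.07) and 0.27 ± 0.13, none past the threshold. TEAD1 fell in KO cells (-1.19 ± 0.10, corrected -0.96), as did AMOT (-1.02 ± 0.10, corrected -0.81) and VGLL3 (-0.91 ± 0.10, corrected -0.73), and in OE cells TEAD4 rose (0.85 ± 0.18) and AMOT fell (-0.41 ± 0.09). RNA levels do not show where YAP protein was in the cell.

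**Figure D5:**
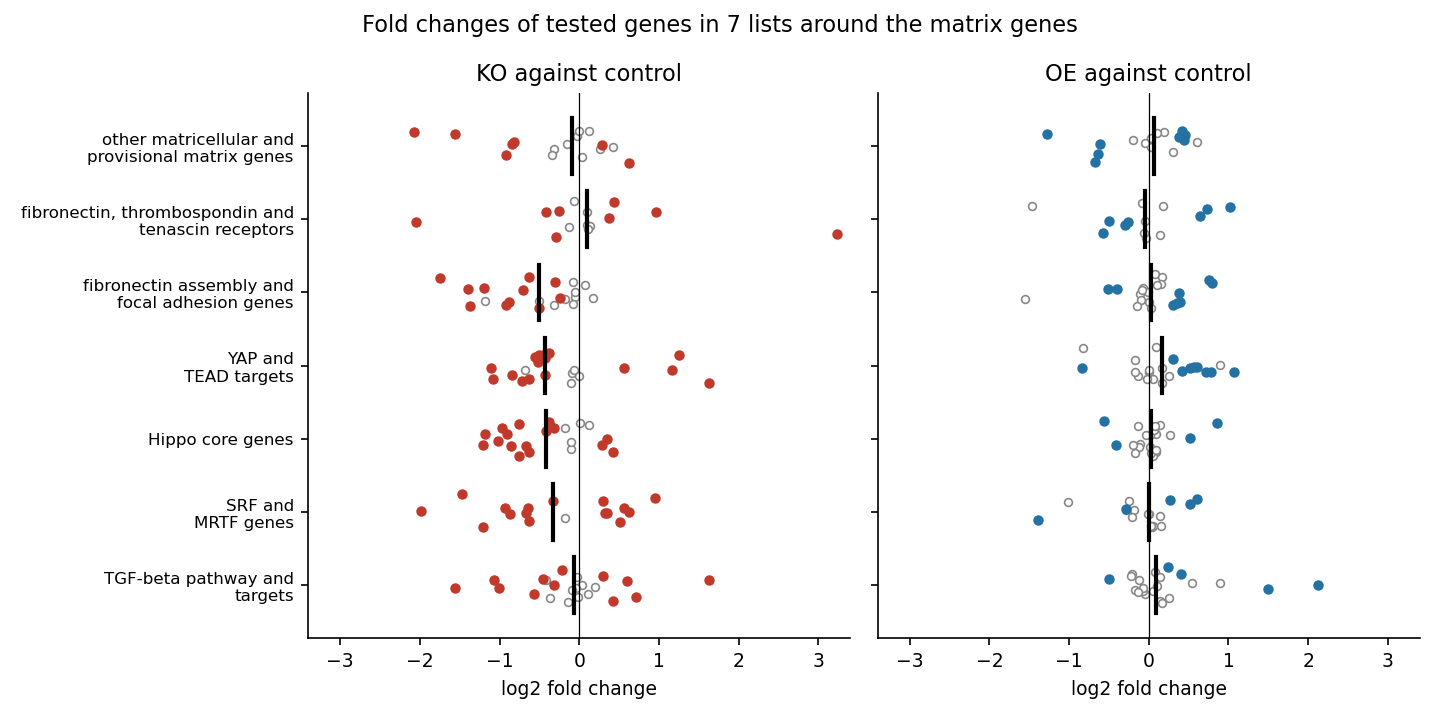
Log2 fold change against control of every tested gene in 7 lists around the matrix genes, in KO (left) and OE (right) cells; filled points passed an adjusted p of 0.05, open points did not, and black bars are medians. The KO medians are -0.50 for focal adhesion genes (-0.05 with the length and GC trend removed, which is not drawn), -0.43 for YAP and TEAD targets (-0.38) and -0.42 for Hippo core genes (-0.28), and in OE cells all 7 medians lie between -0.05 and 0.17.

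SRF and MRTF genes of the actin cytoskeleton, 17 of 18 tested, had 7 rises and 9 falls in KO cells (median -0.34). The corrected counts were 5 and 8 (median -0.14). Of all tested genes, 26% and 25.9% were called higher and lower in KO, or 24.8% and 20.7% corrected. In OE cells the list had 3 rises and 2 falls (median -0.002), beside 9.28% and 9.34% of all tested genes. MYH9 fell (-1.47 ± 0.08, corrected -0.92) and ACTG1 rose (0.63 ± 0.07, corrected 0.58) in KO cells, and TAGLN, which shares 47.8% of its exon bases with other genes, fell (-1.99 ± 0.19, corrected -1.64). ACTB (0.52 ± 0.08) and TPM1 (0.61 ± 0.11) rose in OE cells and FILIP1L fell (-1.40 ± 0.36, not passed without control replicate 2).

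The TGF-beta pathway and its targets, 22 of 24 tested, had 5 rises and 7 falls in KO cells (median -0.07). The corrected counts were 9 and 4 (median -0.04). Of all tested genes, 26% and 25.9% were called higher and lower in KO, or 24.8% and 20.7% corrected. In OE cells the list had 4 rises and 1 fall (median 0.09), beside 9.28% and 9.34% of all tested genes. TGFB1, the main ligand, was higher in KO cells (0.60 ± 0.08, edgeR adjusted p = 1.94e-06, corrected 0.77) and at -0.04 ± 0.08 in OE cells. The activin antagonist FST, at 10.9, 3.88 and 47.3 CPM in control, KO and OE cells on average, rose in OE cells (2.13 ± 0.21, edgeR adjusted p = 1.41e-07), as did INHBA, an activin subunit (1.49 ± 0.42, adjusted p = 0.0132, not passed without control replicate 1, control replicate 2 or OE replicate 3). The latent TGF-beta binding proteins LTBP4 (-1.01 ± 0.13, corrected -0.32) and LTBP2 (-1.08 ± 0.14, corrected -0.54) fell in KO cells.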

How the data were processed

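The authors deposited 1 table of whole-number counts per gene for each of the 9 libraries. Per the file headers, these counts were made with featureCounts 1.5.2 on GRCh38 with Ensembl release 101, with no option set for read pairs, strand or multi-mapping reads, so overlapping or antisense genes cannot be told apart and near-identical copies are uncertain. Per the submitters' processing notes, FastQC, HISAT2 1.03, featureCounts 0.1.0 and DESeq2 were used, and reads were pairs of 150 bases per the labels. Of 60671 genes, 60401 had a symbol in the table used to map identifiers. Columns of other samples numbered 0.

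The main test was the quasi-likelihood test of edgeR 4.0.16 (R 4.3.3, limma 3.58.1) on the deposited counts of all 9 libraries. Genes passed filterByExpr with a minimum count of 10, libraries were scaled by TMM, contrasts were two-sided and a Benjamini-Hochberg adjusted p under 0.05 over 13390 genes counted as a call. The corrected fit used an offset from a loess surface (span 0.3) over exon length and GC content. GC content came from GENCODE release 29 for 13341 of the tested genes, and 49 were given the median. Alternatives were DESeq2 1.42.0 (its size factors and its Wald test), limma-voom, stricter and no filtering, pairwise fits, a fold threshold of 1.5, a replicate block and leaving out each library in turn. TPM used the exon lengths in the files. Between libraries of a group, chi-square per degree of freedom was 2.72 to 10.8, highest for pairs with OE replicate 3. It treats reads as independent. With no option for read pairs both mates can be counted, which raises it without any difference between libraries. Counts were simulated for 13390 genes from each gene's mean over all 9 libraries, with a fixed dispersion and no length trend. In KO against control, 31 of 50 genes changed 1.5-fold and 46 of 50 changed 2-fold were recovered. Of 13190 unchanged genes, 8 were called. The simulation changed far fewer genes than the 6951 called in this comparison in the data. Its 8 calls therefore do not give the rate of wrong calls there. The changed genes of the simulation were drawn above a minimum mean count, so recovery of genes below it was not measured. The intervals are approximate 95% confidence intervals of the log2 fold change, with the standard error derived from the edgeR test statistic. Gene coordinates span all exons listed in the files. Promoters came from RefSeq and matched 7 of the 9 genes.

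The 9 genes, the context and marker lists and the tests were chosen with earlier results of these data known. Named besides the 9 genes were SGPL1, the up to 3 called genes of each list with the smallest p in each comparison, 8 genes named whatever their result, genes of the same families, the genes with the most similar pattern and the nearest tested neighbours. Some of the genes this rule names are not reported here.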

Additional observations from a re-analysis of the deposited data

How the results depend on the processing

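Over 10 alternatives other than leaving out a library, the fold changes of the 9 genes kept direction and call in 262 of 270 comparisons, and 4 lost their call and 4 changed sign. The sign changes were all TGFBI with the length and GC trend removed: 0.272 for KO against control and 0.248 for KO against OE, with or without the block. Leaving out a library kept 234 of 243 comparisons. These runs gave TGFBI in OE from -0.0064 to 0.046, FBLN1 in OE from -0.057 to 0.093, CD47 in OE from -0.061 to 0.0025, TGFB1 in OE from -0.100 to 0.021 and WWTR1 in KO from -0.133 to 0.116, all below the threshold. WWTR1 in KO was also -0.0097 with no low-count filter, -0.0007 at a minimum count of 30 and -0.0035 with only the groups compared. With the trend removed, ITGA5 in KO became 0.107 and ITGB1 -0.036, and 0.106 and -0.037 with the block as well. The cause of these changes was not tested.

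A fold change of at least 1.5, which by construction keeps fewer genes, left 10 context genes higher and 38 lower in KO, 13 higher and 6 lower in OE, and 11 higher in KO against OE. Context genes lower in OE numbered 10 to 18 when 1 library was left out, and the lowest count came without control replicate 1. Replicate numbers did not pair the libraries: correlations of deviations from the group means ran from -0.077 to 0.066 for the 9 same-numbered pairs and from -0.086 to 0.109 for others. The replicate block changed no call of the 9 genes (FN1 -1.68, THBS1 -1.75 in KO) and put WWTR1 at -0.0012. Depth limits low genes such as CCN5 and CCN2, with 6 to 92 reads per library, and TNC in KO, with 36 to 51. Where both mates of a pair were counted, the fragments behind these reads are fewer.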

Other observations

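Among 10163 protein-coding genes averaging 5 CPM or more, the genes nearest to each member were taken by the root mean square difference of log2 CPM, centred on the mean of the 9 libraries. For FN1 these included CENPE (0.11) and MKI67 (0.13), both genes of dividing cells, with exons of 9928 and 12845 bases. For THBS1 they were SERPINE2 (0.26), a secreted protease inhibitor, CDH4 (0.31) and CLSPN (0.32). SPARC was nearest to EEF1A1 (0.07), TOMM20 (0.08) and ARPC5 (0.10), TGFBI to CMAS (0.03), CCN1 to TUBA1A (0.09), and FBLN1 to OAZ2 (0.07). CCN5 had no close match, with CDKN2A at 0.49, KRT4 at 0.54 and TJP3 at 0.57. The 9 libraries share 3 group levels, so a small distance says mainly that group means are alike.

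The nearest tested genes on either side of a member on its chromosome varied in whether their log2 fold changes had its sign. Beside FN1 (-1.68 in KO), ATIC (10667 bases away) had 0.02 ± 0.08 (corrected -0.06) and MREG 0.00 ± 0.15 (corrected -0.23). Beside THBS1 (-1.74 in KO and 1.46 in OE), GPR176 had -0.69 ± 0.58 (corrected -0.67) and 0.31 ± 0.51, and the unnamed gene on the other side had -0.22 ± 0.88 (corrected -0.15) and 1.06 ± 0.74, none past the threshold. Beside CCN1 (0.23 in KO), DDAH1 had -0.30 ± 0.21 (corrected -0.51) and ZNHIT6 -0.61 ± 0.14 (corrected -0.77). Both neighbours of CCN2 (0.74 in KO) were positive there, STX7 at 0.33 ± 0.11 (corrected 0.54) and past the threshold, ENPP1 at 0.36 ± 0.19 (corrected 0.56) and not. Beside CCN5 (-3.16 in OE), ADA had -0.29 ± 0.10 and KCNK15 -0.69 ± 0.34 in OE cells, neither past the threshold, and in KO cells ADA was called higher (0.73 ± 0.10, corrected 0.60). Beside SPARC (1.46 in KO), FAT2 had -1.06 ± 0.12 (corrected -0.43) and ATOX1 0.56 ± 0.12 (corrected 0.48). Beside TNC (-1.69 in KO), TNFSF15 had 0.21 ± 0.36 (corrected 0.26) and TRIM32 -0.12 ± 0.13 (corrected -0.25). Both neighbours of TGFBI (-0.03 in KO, corrected 0.27) were called higher there, MACROH2A1 at 0.38 ± 0.08 (corrected 0.86) and SMAD5 at 0.34 ± 0.10 (corrected 0.36). Beside FBLN1 (0.32 in KO), ATXN10 had 0.92 ± 0.08 (corrected 0.84) and FAM118A -0.61 ± 0.19 (corrected -0.37).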
